A study of Caenorhabditis elegans with 4 samples.

Results

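The Hox genes of *Caenorhabditis elegans* are the 6 genes ceh-13, lin-39, mab-5, egl-5, php-3 and nob-1, taken here by name from a table of 19971 protein-coding genes on the 6 chromosomes. Their occupancy by HPL-2 was read from peak lists of chromatin immunoprecipitation followed by sequencing (ChIP-seq). The series holds 4 libraries from wild-type N2 worms at the L3 larval stage, with both males and hermaphrodites, at 20 °C. Chromatin of the ground worms was crosslinked with EGS and then with EGS plus formaldehyde. They are 2 libraries precipitated with the rabbit polyclonal antibody SDQ2340 against HPL-2, and 2 libraries of input DNA, which were not analysed here. A peak list was used for each ChIP replicate, with 20533 peaks in replicate 1 and 16490 in replicate 2, beside a series-level list of 23530 peaks. The worms were analysed whole, so a peak may come from any tissue or from some cells only.

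Hox genes encode homeodomain transcription factors that give cells their identity along the head-to-tail axis. In the worm, ceh-13 is the labial-class member and acts in anterior cells, lin-39 acts in the mid-body and in the vulval precursor cells, mab-5 acts in the posterior body and the male tail, and egl-5 and the paralogues php-3 and nob-1 are posterior members of the Abdominal-B class. HPL-2 is a worm relative of heterochromatin protein 1, and proteins of this family recognise methylated histone H3 through a chromodomain. Loss of hpl-2 affects vulval development in synthetic multivulva backgrounds, a process in which lin-39 acts. The 6 genes lie on chromosome III in 3 pairs, lin-39 with ceh-13, mab-5 with egl-5, and php-3 with nob-1. When the chromosome was divided into 3 equal parts, the first 2 pairs fell in the centre and php-3 with nob-1 in the right arm.

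HPL-2 peaks at the central Hox pairs were mostly narrow and of low rank in the series-level list, those at php-3 and nob-1 less so. No broad HPL-2 domain covered a Hox gene. In the series-level list, 20 peaks lay within 5 kb of a Hox gene or between the members of a pair. The widest measured 622 bp, and 4 of the 20 scored at or above the median of the list. Both replicate lists held 5 of the 20 (25%), beside 43.5% of all series-level peaks, 26.1% of those in the centre of chromosome III and 47.7% of those in its right arm. Of these 5, 3 lay at php-3 and nob-1. Every Hox gene had at least 1 series-level peak in its window, which is the gene body plus 5 kb on each side, but ceh-13 had none in either replicate list.

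**Figure D1:**
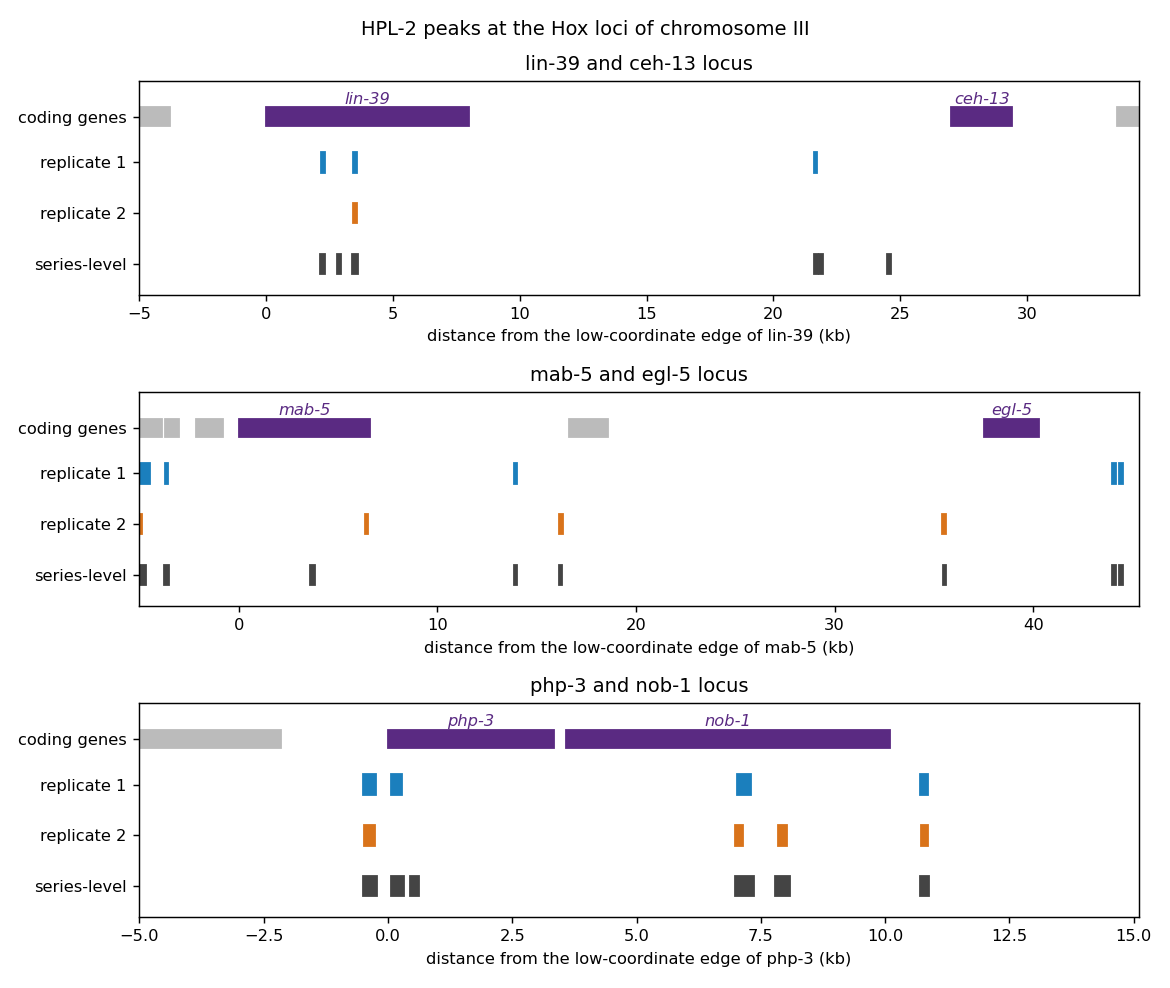
Position of HPL-2 peaks at the 3 Hox pairs, drawn to scale from 5 kb before the first gene to 5 kb after the last. The x axis gives the distance in kb from the low-coordinate edge of the first gene, purple boxes are Hox gene bodies, grey boxes other protein-coding genes, and coloured bars the peaks of each list. The body of ceh-13 and the body of egl-5 hold no peak in any list.

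The windows of all 6 Hox genes held a series-level peak, where 71.9% of all 19971 protein-coding genes had one. For the 4 Hox genes of the chromosome III centre the matching background was 74.0% of 1063 genes, and for php-3 and nob-1 it was 88.0% of the 819 genes of the right arm. A window with at least 1 peak was therefore the usual state of a gene in this list. A peak of each replicate list was present in the windows of 5 of the 6 Hox genes, against 50.4% of all genes, 36.8% in the centre and 76.9% in the right arm. With the stricter demand that a series-level peak itself overlap peaks of both replicates by at least 1 bp, 4 Hox genes remained, lin-39, mab-5, php-3 and nob-1. That share was 45.6% over all genes, 33.2% in the centre and 71.1% in the right arm. Hox gene bodies held a series-level peak in 4 of 6 cases, against 30.0% of all genes, 23.6% in the centre and 51.9% in the right arm. The median Hox gene body was 4.93 kb long and the median body of all genes 2.01 kb, so Hox bodies offered more bases for an overlap. No test was made of these counts, because the 6 genes are too few and neighbouring windows share peaks.

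The series-level list had 3 peaks in the windows of lin-39, mab-5 and egl-5, 1 in that of ceh-13, 5 in that of php-3 and 6 in that of nob-1. The median was 3 over the Hox genes and 2 over all genes, 1 over the genes of the chromosome III centre and 4 over those of the right arm. Thus lin-39, mab-5 and egl-5 stood at the upper quartile of their part of the chromosome (3 peaks), ceh-13 at its median, and php-3 and nob-1 between the median of the right arm and its upper quartile of 7. These counts were not scaled by window length. Windows measured 17.99 kb at lin-39, 16.62 kb at mab-5, 12.77 kb at egl-5 and 12.38 kb at ceh-13, beside a median of 12.05 kb in the centre. At php-3 and nob-1 they measured 13.34 and 16.52 kb, beside 12.6 kb in the right arm. The windows of php-3 and nob-1 overlap and share 5 peaks, so their counts are not independent.

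**Figure D2:**
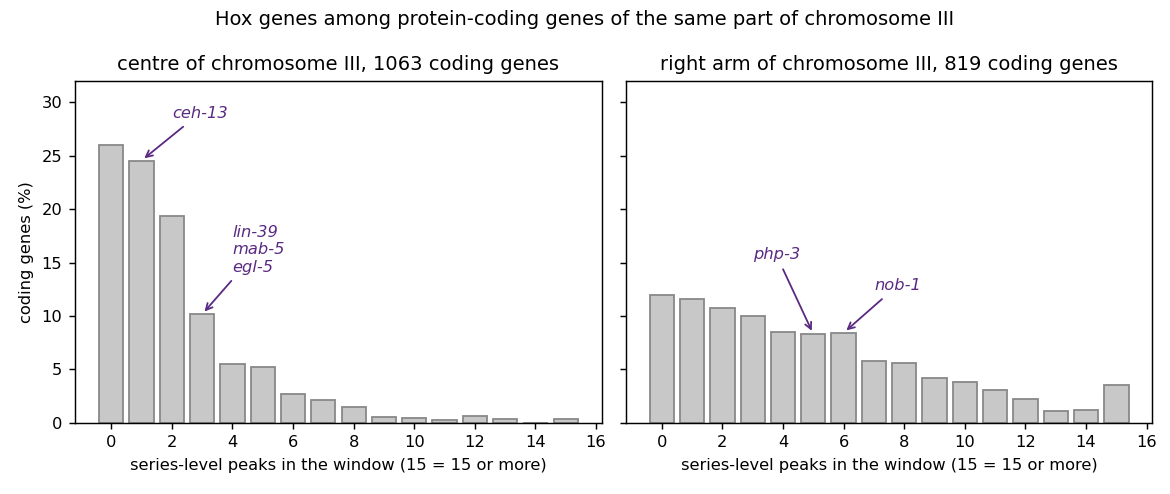
Percent of protein-coding genes (y axis) by number of series-level HPL-2 peaks in the window (x axis), for the centre of chromosome III on the left and the right arm on the right, with the Hox genes marked by arrows. The Hox genes sit within the body of each distribution, at 1 or 3 peaks in the centre and at 5 and 6 in the right arm.

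Series-level peaks covered 3.17% of the lin-39 window, 1.28% of the ceh-13 window, 4.85% of the mab-5 window, 4.56% of the egl-5 window, 10.6% of the php-3 window and 9.65% of the nob-1 window. The median over the 6 genes was 4.70%, beside 3.19% over all genes, 2.87% over the centre of chromosome III and 10.1% over its right arm. Both posterior paralogues lay near the middle of the right arm (percentiles 51.2 and 48.5 among its genes), although they had the highest shares among Hox genes. Among the genes of the centre, mab-5 stood at percentile 66.5, egl-5 at 65.3, lin-39 at 54.5 and ceh-13 at 29.7. Replicate 1 had the higher share in 5 genes and neither replicate covered any base of the ceh-13 window. As means over the replicate lists (SD, n = 2), the shares were 1.41% ± 0.55 for lin-39, 3.14% ± 1.60 for mab-5, 2.33% ± 1.05 for egl-5, 5.07% ± 1.10 for php-3 and 5.06% ± 1.01 for nob-1. Each replicate list had the same order, lin-39 below egl-5 below mab-5 and all 3 below php-3 and nob-1. The labels do not state separate cultures for the 2 ChIP replicates, and this spread may be technical.

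**Figure D3:**
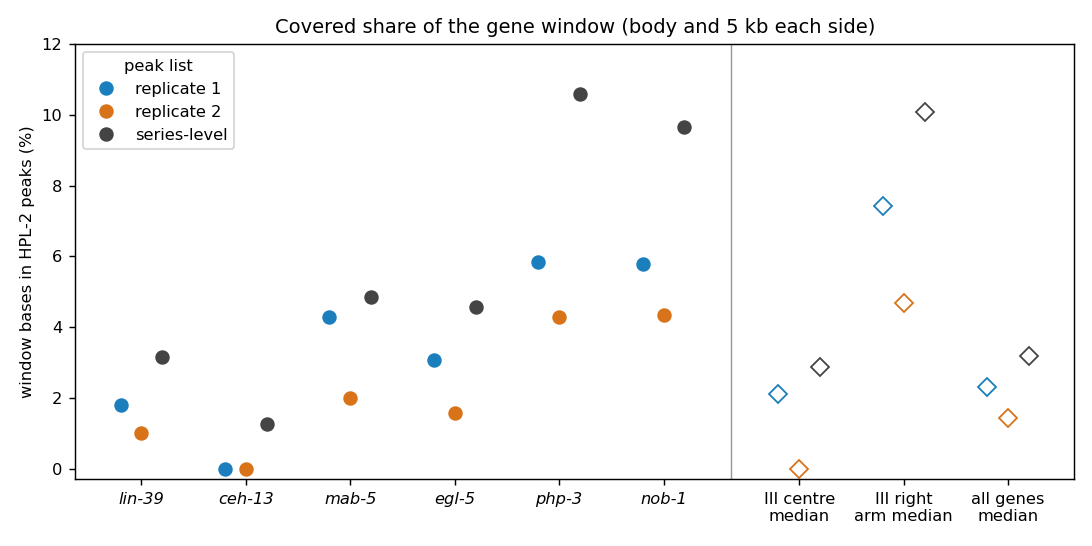
Share of each window in HPL-2 peaks (y axis, percent) for the 6 Hox genes, and to the right of the line the median over the protein-coding genes of the chromosome III centre, of its right arm and of all chromosomes. Colours mark the peak list. The series-level value lies above both replicates for every Hox gene, and php-3 and nob-1 reach 10.6% and 9.65%, near the 10.1% median of the right arm.

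Within lin-39, the gene that keeps vulval precursor cells competent, all peaks of the window lay in the gene body. The series-level list had peaks from 7530782 to 7530975, from 7531433 to 7531594 and from 7532036 to 7532249 on chromosome III (WormBase WS220). Their scores of 7.93, 3.81 and 7.83 fell at percentiles 29.7, 6.4 and 29.1 of the list. The last of these peaks was the most reproducible site of the gene, called from 7532057 to 7532232 in replicate 1 (score 3.00) and from 7532059 to 7532242 in replicate 2 (score 6.94). The first was called in replicate 1 alone, from 7530809 to 7530956, and the middle peak in neither. The first and last peaks came within 150 bp of the annotated non-coding RNA genes C07H6.14 and C07H6.18, which lie inside lin-39. The 5 kb on either side of the lin-39 body held no peak in any list, and widening the flank to 10 kb added none to the 3 series-level peaks.

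Between lin-39 and ceh-13 lie 19.0 kb without another protein-coding gene, although the table places the lncRNA linc-57 and the microRNA gene mir-231 there. This space held 3 series-level peaks, from 7550228 to 7550382, from 7550457 to 7550609 and from 7553129 to 7553286. They were between 153 and 158 bp wide, close to the narrowest width in the list (146 bp), and scored 6.23, 5.06 and 6.74. Replicate 1 had only the first, from 7550234 to 7550379, and replicate 2 had none. All 3 stood nearer to ceh-13, at 5.28, 5.05 and 2.37 kb from its body, than to lin-39. Series-level peaks covered 2.45% of this space, the replicate 1 peak 0.767%, and replicate 2 left it uncovered.

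The labial-class gene ceh-13 had the fewest HPL-2 peaks and the lowest covered share of the 6. Its body lay in a peak-free stretch of 19.7 kb in the series-level list, from 7553287 to 7572948, of 22.6 kb in replicate 1 and of 44.2 kb in replicate 2. Such stretches were not rare in the centre of chromosome III, where 58 of 786 gaps between neighbouring series-level peaks were at least as long (median gap 1.27 kb), with 55 of 691 in replicate 1 and 31 of 338 in replicate 2. The 1 peak counted in its window was the one from 7553129 to 7553286, seen in neither replicate. A window 150 bp wider on each side, which allows for the difference between the genome builds of peaks and genes, also takes in the peak from 7550457 to 7550609 and gives 2.

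At mab-5, which directs the posterior migration of the QL neuroblast descendants, most of the bases counted in the series-level list and in replicate 1 lay over other genes. Those of replicate 2 were divided between the gene body and a neighbouring gene. The series-level peak from 7771541 to 7772162 (622 bp, score 11.4) overlapped the neighbouring gene ZK686.6, 4.7 kb from mab-5, and was called in both replicates, from 7771563 to 7772367 in replicate 1 (score 7.78) and from 7771758 to 7771980 in replicate 2 (score 6.12). The peak from 7773099 to 7773310 (score 12.9) overlapped ZK686.1, 3.5 kb from mab-5, and was called in replicate 1 alone. Inside mab-5 the lists did not overlap. The series-level peak from 7780417 to 7780682 (score 4.71) appeared in neither replicate, while replicate 2 had a peak from 7783174 to 7783361 (score 7.97) that was missing from the other lists, and replicate 1 had none in the body. With a window narrower by 150 bp on each side, replicate 2 had 1 peak in place of 2 at mab-5, since its peak over ZK686.6 touches the window's edge. With a window wider by 150 bp, that peak counts in full, with 223 bp beside 188 bp in the body.

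The space between mab-5 and egl-5 spans 30.9 kb and contains the protein-coding gene cyk-7 and 6 annotated non-coding RNA genes. Here again no peak was called in both replicates. The series-level list had 3 peaks, from 7790679 to 7790853 (score 5.06), from 7792960 to 7793139 (score 6.98) and from 7812287 to 7812458 (score 12.6). Replicate 1 had the first, 7.2 kb from mab-5, and replicate 2 had the other two, 0.3 kb from cyk-7 and 1.9 kb from egl-5. The peak next to egl-5 ran from 7812257 to 7812459 in replicate 2 and scored 24.7, at percentile 79.7 of that list, the highest rank of any replicate 2 peak at a Hox locus. Series-level peaks covered 1.70% of the space, replicate 1 peaks 0.514% and replicate 2 peaks 1.20%.

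The tail gene egl-5 had peaks on both sides and none in its body. On the far side from mab-5 lay the series-level peaks from 7820777 to 7820995 (score 25.8) and from 7821170 to 7821360 (score 9.56), at 3.6 and 4.0 kb from egl-5 and 3.4 and 3.0 kb from egl-45. Both were called in replicate 1, with scores of 19.1 and 3.83, and not in replicate 2. The 2 replicates thus placed their peaks on opposite sides of egl-5, and no site near the gene was shared. The peak-free stretch that holds the gene body measured 8.3 kb in the series-level list, 29.9 kb in replicate 1 and 42.1 kb in replicate 2. In the centre of chromosome III as a whole, replicate 2 had 339 peaks against 691 in replicate 1, and the part of that difference in the egl-5 result was not tested.

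The posterior paralogues php-3 and nob-1, which pattern the rear of the embryo, held 3 of the 5 Hox peaks called in both replicates. These were 3 of the 6 series-level peaks of the pair (50%), near the 47.7% of all series-level peaks of the right arm. The highest-scoring peak of the Hox loci in the series-level list and in replicate 1 lay from 12073713 to 12073990, 0.2 kb outside the php-3 body on the side of the gene zyg-8. Its series-level score was 39.9 (percentile 84.1), its replicate 1 score 30.2 (percentile 82.9) and its replicate 2 score 10.6 (percentile 51.7). In replicate 2 the peaks beside egl-5 (score 24.7) and near cyk-7 (score 11.3) scored higher. Within php-3, the peak from 12074278 to 12074536 (score 5.82) was found in replicate 1 only, and that from 12074657 to 12074846 (score 5.90) in neither replicate.

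Inside nob-1 the series-level list had peaks from 12081191 to 12081579 (389 bp, score 17.4) and from 12082012 to 12082307 (score 4.78). The first was called in both replicates, from 12081246 to 12081521 in replicate 1 (score 9.15) and from 12081206 to 12081356 in replicate 2 (score 2.52, percentile 0.7), and the second in replicate 2 only. Beyond the other end of nob-1, at 0.6 kb, a peak from 12084912 to 12085094 (score 13.8) was called in both replicates, with scores of 7.71 in replicate 1 and 5.89 in replicate 2. The sites shared by both replicates therefore lay at the outer edges of the pair and inside nob-1. Between the 2 gene bodies lie only 236 bp, which held no peak in any list. That space is shorter than the padding applied at its ends, and the count stayed at 0 with 150 bp added on each side.

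Support by the replicates differed between the pairs. Both replicates had 3 of the 6 series-level peaks at php-3 and nob-1, 1 of the 6 at lin-39 and ceh-13 and 1 of the 8 at mab-5 and egl-5. Of the 20 peaks, 5 (25%) had a match in each replicate, 7 (35%) matched replicate 1 alone, 3 (15%) matched replicate 2 alone, and 5 (25%) had no match. Among all series-level peaks 43.5% matched both, 39.1% replicate 1 alone, 8.16% replicate 2 alone and 9.23% neither. In the centre of chromosome III the shares were 26.1%, 57.1%, 4.71% and 12.1% in the same order. In the right arm they were 47.7%, 36.7%, 7.38% and 8.31%. The share matched in both was thus lower at the central Hox pairs (16.7% and 12.5%) than at php-3 and nob-1 (50%). All peaks of the centre and of the right arm differed in the same direction. Both central pairs lay below the 26.1% of the centre. Peaks with no match made up 50% at lin-39 and ceh-13 and 12.5% at mab-5 and egl-5, beside 12.1% in the centre. No test of the difference was made.

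Most Hox peaks lay below the list's median in score and width in every list, though not at each pair. The 20 series-level peaks had a median score of 7.41, beside 13.2 over the whole list, 11.5 over the chromosome III centre and 14.2 over its right arm. In replicate 1, 12 peaks had a median score of 5.95 beside 10.6 for the list, and in replicate 2, 9 peaks had a median of 6.94 beside 10.3. The scores of different lists are not on a known common scale and were ranked only within a list. The count at or above the list's median was 4 of 20 in the series-level list, 2 of 12 in replicate 1 and 3 of 9 in replicate 2. Every series-level peak at lin-39 and ceh-13 was below the median, and 1 of 8 at mab-5 and egl-5 reached it, beside 346 of 786 in the centre. At php-3 and nob-1, 3 of 6 reached it, beside 908 of 1708 in the right arm. The low count in this list thus came mainly from the central pairs. Across the 3 pairs in the same order, replicate 1 had 0 of 3, 1 of 5 and 1 of 4 at or above its median. Replicate 2 had 0 of 1, 2 of 4 and 1 of 4. The Hox peaks had a median width of 192.5 bp, beside 259 bp for the whole series-level list. It was 160 bp at lin-39 and ceh-13 and 201.5 bp at mab-5 and egl-5, beside 244.5 bp in the centre. At php-3 and nob-1 it was 268.5 bp, beside 268 bp in the right arm, so this pair's peaks were not narrow in this list. Their median was 252 bp in replicate 1 and 166.5 bp in replicate 2. In replicate 1 the Hox peaks measured 182 bp and all peaks 258 bp, and in replicate 2 the Hox peaks measured 184 bp and all peaks 231 bp. No series-level Hox peak exceeded 1 kb, a width exceeded by 6.74% of all series-level peaks, 5.85% of those in the centre and 7.67% of those in the right arm.

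**Figure D4:**
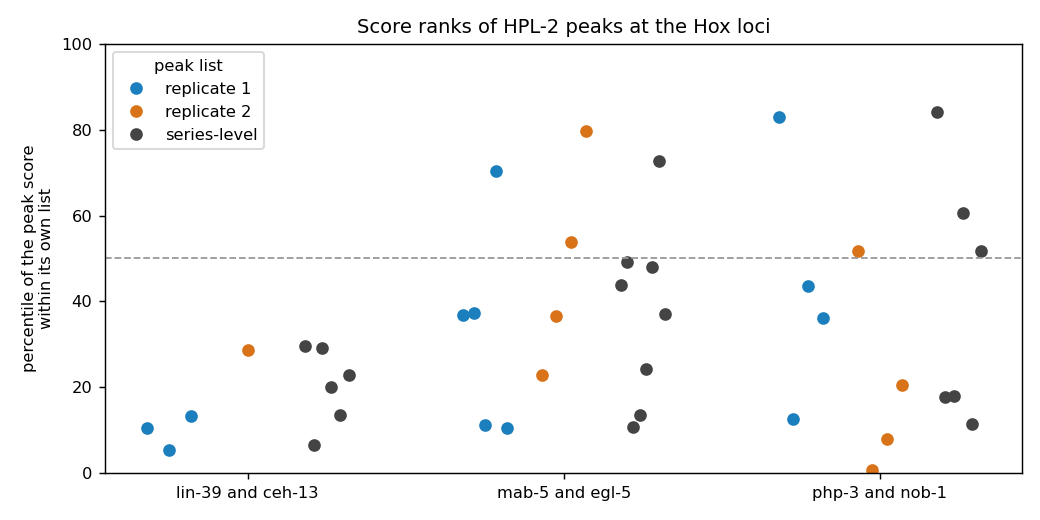
Percentile of each peak's score within its own list (y axis) for the peaks at the 3 Hox pairs (x axis), coloured by list, with the list median as a dashed line. Every peak at lin-39 and ceh-13 lies below the line, and the highest, at 84.1, is the series-level peak beside php-3.

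Peak density and covered length were also compared with the part of the chromosome around the genes. Taking each pair with the space between its members and 5 kb outside, the series-level list had 1.52 peaks per 10 kb at lin-39 and ceh-13 and 1.59 at mab-5 and egl-5, beside 1.71 in the centre, and 2.99 at php-3 and nob-1 beside 3.72 in the right arm. In replicate 1 the densities were 0.76 and 0.99 peaks per 10 kb at the central pairs beside 1.5 in the centre, and 1.99 at php-3 and nob-1 beside 3.30 in the right arm. In replicate 2 they were 0.25 and 0.80 beside 0.74, and 1.99 beside 2.76. Density was thus below that of its part of the chromosome at every pair and list except mab-5 and egl-5 in replicate 2. Series-level covered length was 2.63% and 3.47% for the 2 central pairs beside 6.85% in the centre, and 7.94% for php-3 and nob-1 beside 16% in the right arm. The covered share was below that of its part of the chromosome at all 3 pairs in both replicates too. In replicate 1 it was 1.19%, 2.51% and 4.75% in the order above, beside 6.02% in the centre and 13.6% in the right arm. In replicate 2 it was 0.467% and 1.40% beside 2.08%, and 3.57% beside 9.08%. The values of the centre and right arm here are peak bases over the whole part of the chromosome. They differ from the medians over gene windows given above, which were 2.87% and 10.1% in the series-level list. Beside those medians, the windows of lin-39, mab-5, egl-5 and php-3 had a higher series-level share, and those of ceh-13 and nob-1 a lower one.

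In the series-level list, density in the 50 kb on each side of a pair was lower than in the span at the central pairs. It was higher there at php-3 and nob-1, while covered share was higher at all 3 pairs. In both replicate lists, density was higher in the surroundings at all 3 pairs. In peaks per 10 kb, lin-39 and ceh-13 had 0.76 in the span and 0.9 around it in replicate 1. In replicate 2 they had 0.25 and 0.6. At mab-5 and egl-5 the values were 0.99 and 1.3 in replicate 1, and 0.8 and 1.5 in replicate 2. The series-level list had 1.52 peaks per 10 kb in the lin-39 and ceh-13 span and 0.9 in its surroundings, 1.59 in the mab-5 and egl-5 span and 1.5 in its surroundings, and 2.99 in the php-3 and nob-1 span and 5.5 in its surroundings. Series-level peaks covered 2.63% of the lin-39 and ceh-13 span and 4.0% of its surroundings, 3.47% of the mab-5 and egl-5 span and 17.8% of its surroundings, and 7.94% of the php-3 and nob-1 span and 25.4% of its surroundings. The widest peak near mab-5, singled out after its width was seen, ran from 7721257 to 7728223 (6967 bp, score 55.1) over ncl-1, 48.6 kb from mab-5. It was 1 peak of 6893 bp in replicate 1, while the widest peak of replicate 2 near this pair, also over ncl-1, measured 895 bp. Wide HPL-2 peaks thus occurred within 50 kb of the mab-5 window's edge, and none reached the pair.

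Genes that work with or on the Hox genes were read in the same way. Of 40 such genes in 6 lists, 34 had a series-level peak in the window and 20 had a series-level peak matched in both replicates, beside 71.9% and 45.6% of all genes. The share matched in both was thus near that of all genes. The median covered share was 4.70% for both the Hox genes and these 40 genes, which ranged from 0 to 53.3%. The lists were described and not tested. The all-gene values are not matched for chromosome position, unlike those of the centre and right arm given for Hox genes. With each chromosome in 3 equal parts, unc-62, sop-2, pry-1, mig-1, egl-18 and elt-6, the most covered genes named below, lie outside the centre. Of the genes without a series-level peak, egl-20, bar-1 and hlh-8 lie in a centre, and mes-3, egl-1 and lag-2 do not. The effect of position on these shares was not tested. The counts with a peak in each list below are to be read beside the same 71.9% of all genes. Counts matched in both replicates are to be read beside 45.6%, and the median shares beside 3.19%.

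Among the TALE-class cofactors that bind DNA together with Hox proteins, all 4 had a series-level peak, with a median share of 3.90%. A peak matched in both replicates was present at 3 of them. The lowest share was 0.063%, from 1 peak that only touched the window's edge, and that peak is among those matched. The Meis homologue unc-62 had 16 peaks over 42.6% of its window, with 13 in replicate 1 and 12 in replicate 2. The Pbx homologue ceh-20 had 2 peaks over 5.44%, both called in both replicates. For the posterior homeobox genes, the even-skipped homologue vab-7 had 4 peaks over 6.43% and the caudal homologue pal-1 had 1 over 1.34%.

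Polycomb-like genes keep Hox genes silent outside their domains, and 7 of the 8 listed had a peak, with a median share of 5.71%. A peak matched in both replicates was present at 6 of them. The gene sop-2, whose loss derepresses Hox genes in the worm, had 12 peaks over 31.5% of its window, and the PRC1-like gene mig-32 had 4 over 8.29%. The PRC2-like gene mes-3 had none in any list. Of the 7 Trithorax-like and demethylase genes, all had a series-level peak and the median share was 11.3%. A peak matched in both replicates was present at 3 of them, near the 45.6% of all genes. The ASH1 homologue lin-59 had 6 peaks over 17.3% and the methyltransferase subunit gene ash-2 had 7 over 14.4%.

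Wnt signalling sets mab-5 and lin-39 expression in migrating neuroblasts and vulval precursors, and 8 of its 10 listed genes had a peak (median share 4.04%). A peak matched in both replicates was present at 5 of them. The Axin homologue pry-1 had the highest share of all 40 genes, with 18 peaks over 53.3% of the window, 17 peaks in replicate 1 and 18 in replicate 2. The Frizzled gene mig-1 had 14 peaks over 32.7%. No list had a peak at the Wnt ligand gene egl-20 or at the beta-catenin gene bar-1, which act upstream of mab-5.

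Of the 9 genes described as Hox targets, 6 had a series-level peak and 2 had one matched in both replicates, with a median share of 1.21%. Those 2 were the neighbouring GATA factor genes egl-18, with 8 peaks over 29.8%, and elt-6, with 7 over 22.8%. As neighbours they may share peaks, so their counts may not be independent. The cell-death gene egl-1 and the Twist homologue hlh-8 had no peak in any list, and the Notch ligand gene lag-2 had none in the series-level list and 1 in replicate 2.

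**Figure D5:**
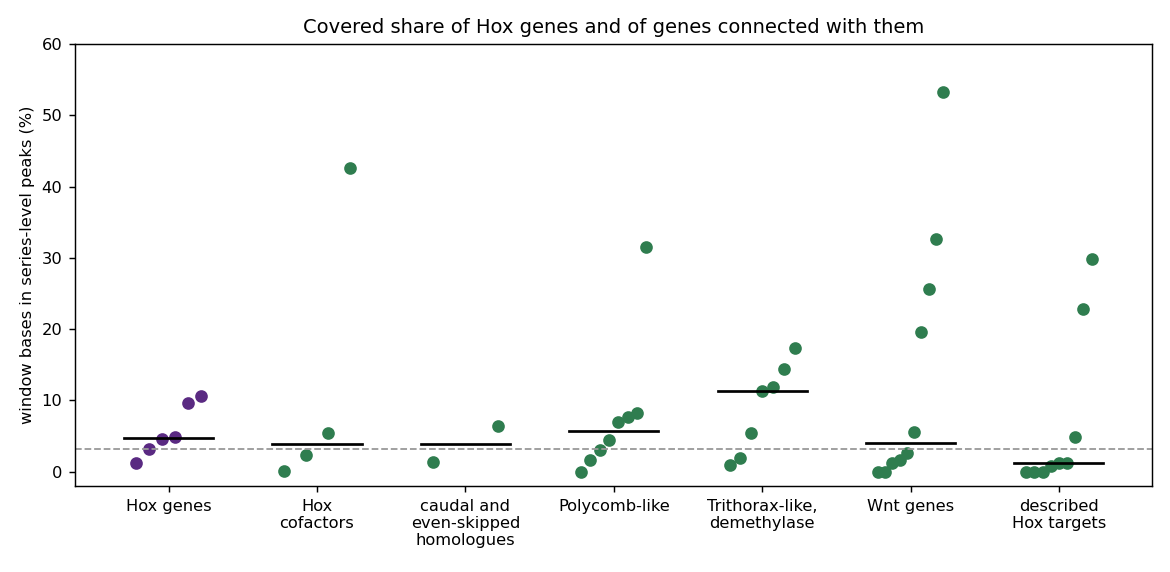
Share of the gene window in series-level peaks (y axis, percent) for the Hox genes and for the 6 lists of connected genes, each dot a gene and each bar the median of its list, with the median over all protein-coding genes dashed (3.19%). The Hox genes lie between 1.28% and 10.6%, and the other lists reach up to 53.3%, at pry-1.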

How the data were processed

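The authors deposited peak lists with a score per peak. Per the file headers, positions are on WormBase WS220 and MACS is the source. The submitters' processing notes name BWA and ce10. Not given in the sources used here are MACS settings, the scale of the score and how the series-level list was made, and read depth is unknown. An absent peak does not show absent binding.

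Gene bodies came from a RefSeq table on WBcel235, which gives no strand or exons, so no gene coordinates are printed and distances are approximate (checked with 150 bp padding). Planned results on gene starts, homeodomains and promoters were therefore not run. A peak belonged to a window at an overlap of at least 1 bp. Chromosome length was the largest peak end over the 3 lists. Genes were named if Hox, if the 2 most covered of a connected list or without a series-level peak, or if at a Hox peak. Members and lists were chosen with earlier results of these data known. Counts were made with Python 3.11.15, numpy 2.4.6 and pandas 2.3.3, and tested on simulated peaks. Alternatives were flank, padding, midpoint, score, replicate support and single replicate lists.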

Additional observations from a re-analysis of the deposited data

How the results depend on the processing

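All 6 Hox genes kept a series-level peak with a 10 kb flank, 150 bp of padding either way or the midpoint rule. There were 5 with a 2 kb flank or with either replicate list alone, 4 with no flank or with peaks matched in both replicate lists, and 3 with peaks at or above the median score. A peak of each replicate list was found at 5 genes, at 2 with no flank, at 3 with a 2 kb flank and at 3 with peaks at or above the median score. The median covered share of 4.70% was 0.858% with peaks at or above the median score and 1.58% with peaks matched in both replicate lists, and 1.80 to 3.68% with 1 replicate list left out. The peaks between lin-39 and ceh-13, and those between mab-5 and egl-5, numbered 3 each and 0 under both restrictions. With 1 replicate list left out they numbered 0 to 1 and 1 to 2. The score and support restrictions leave fewer peaks by construction, and for the single replicate lists the cause was not tested. The other results listed above that were recomputed stayed within 1.5 times or the replicate SD, apart from counts at single genes, which moved in many settings. No paired analysis was possible because no result comes from a test and input DNA was not analysed here. Without read counts, sites under the unknown threshold cannot be seen.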
